A study of Mus musculus with 4 samples.

Results

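The genes described here encode proteins of neutrophil granules and of the neutrophil cytosol that are made in large amounts by maturing granulocytes of the bone marrow: *Mpo*, *Elane*, *Prtn3*, *Ltf*, *Camp*, *Ngp*, *Lcn2*, *S100a8*, *S100a9* and *Retnlg*. They were chosen by name, and their probes were found on the arrays through the RefSeq identifiers in the scanner files. All 10 genes had a probe, with 11 probes in all because *Camp* had 2, out of 32575 genes or identifiers and 39418 probes measured. Total RNA from spinal cord and duodenum was hybridized to 4 mouse arrays in 1 colour, 1 array for each tissue and genotype, all on 1 slide. The 4 groups were WT spinal cord, IP6K2-/- spinal cord, WT duodenum and IP6K2-/- duodenum. The mice were males of 20 weeks. Controls were WT littermates, and IP6K2-/- mice lack exon 6, which encodes the kinase domain of inositol hexakisphosphate kinase 2. Mice of both genotypes had been kept on the same normal diet, received a purified diet for 1 week and were then fasted for 48 h. The labels do not say whether an array held RNA of 1 mouse or of a pool. With 1 array per group no difference has a replicate check, no test was made, and the errors given below are technical SDs from replicate spots within arrays.

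Neutrophils arise in the bone marrow through stages that are known for the granules formed at each. Promyelocytes make the primary (azurophil) granules, which hold myeloperoxidase and serine proteases. Myelocytes and metamyelocytes make the specific granules, which hold lactoferrin, the cathelicidin precursor and lipocalin 2. The transcripts of granule proteins fall as the cells mature, whereas those of the calgranulins S100A8 and S100A9 stay abundant in the circulating neutrophil. Healthy spinal cord tissue holds few neutrophils, and marrow fills the vertebrae around it. The lamina propria of the duodenum is known to hold few neutrophils in the absence of inflammation.

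Because the genes are textbook targets of the granulocyte transcription factors C/EBP epsilon, C/EBP alpha and PU.1, the 250 bases before the annotated start of each gene were read from RefSeq's promoter table of mouse build GRCm38.p6, which held all 10 genes. Shown here are the promoters of the gene with the largest spinal cord difference in each group of granule genes, *Mpo*, *Ltf* and *S100a8*, and those of *Elane* and *Prtn3*, which are neighbours on chromosome 10 with 0 annotated genes between them. Capitals mark matches on either strand to TTGCNNAA, part of the motif bound by C/EBP proteins, to GAGGAA, part of the motif bound by PU.1, and to TATAAA, the TATA box. No match overlapped another.
Mpo (chr11:87793534-87793783, + strand): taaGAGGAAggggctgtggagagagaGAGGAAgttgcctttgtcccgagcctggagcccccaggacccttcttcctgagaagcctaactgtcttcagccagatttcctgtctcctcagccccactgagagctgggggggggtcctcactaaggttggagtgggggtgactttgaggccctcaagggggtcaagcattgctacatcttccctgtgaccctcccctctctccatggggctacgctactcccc
Elane (chr10:79886062-79886311, + strand): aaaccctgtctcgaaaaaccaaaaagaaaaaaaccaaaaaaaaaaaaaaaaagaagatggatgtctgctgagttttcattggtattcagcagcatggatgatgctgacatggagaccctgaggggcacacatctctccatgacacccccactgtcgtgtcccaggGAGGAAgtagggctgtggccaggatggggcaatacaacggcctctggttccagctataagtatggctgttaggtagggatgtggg
Prtn3 (chr10:79879417-79879666, + strand): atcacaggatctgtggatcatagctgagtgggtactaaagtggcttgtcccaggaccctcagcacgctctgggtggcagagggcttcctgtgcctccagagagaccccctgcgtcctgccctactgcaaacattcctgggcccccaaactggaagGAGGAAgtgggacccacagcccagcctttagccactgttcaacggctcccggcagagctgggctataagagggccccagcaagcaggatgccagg
Ltf (chr9:111019042-111019291, + strand): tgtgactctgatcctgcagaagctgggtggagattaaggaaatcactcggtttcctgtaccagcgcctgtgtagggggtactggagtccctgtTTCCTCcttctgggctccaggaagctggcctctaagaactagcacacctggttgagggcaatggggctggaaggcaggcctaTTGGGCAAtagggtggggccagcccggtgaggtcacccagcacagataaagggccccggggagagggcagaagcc
S100a8 (chr3:90668821-90669070, + strand): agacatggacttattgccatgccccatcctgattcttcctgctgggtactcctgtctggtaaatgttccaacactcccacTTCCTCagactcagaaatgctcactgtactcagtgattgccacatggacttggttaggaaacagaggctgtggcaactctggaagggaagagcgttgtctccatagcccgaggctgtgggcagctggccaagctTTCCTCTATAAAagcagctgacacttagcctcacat
GAGGAA or its reverse complement was present before 6 of the 10 genes, *Mpo*, *Elane*, *Prtn3*, *Ltf*, *Lcn2* and *S100a8*, and before 23.3% of 32851 promoters of the same length. All 3 primary granule genes held it. The copies before *Elane* and *Prtn3* started 85 and 95 bases upstream of the start, and both were on the coding strand. TTGCNNAA was present before 5 of the 10, *Ltf*, *Ngp*, *Lcn2*, *S100a9* and *Retnlg*, and before 9.56% of all promoters. It was found before 0 of 3 primary granule genes, 3 of 4 specific granule genes and 2 of 3 late genes. The TATA box was found before 1 gene, *S100a8*, 30 bases upstream of the start, and before 12.4% of all promoters. *Camp* held none of the 3 motifs in this window. These matches describe the letters in the windows and were not related to binding.

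Between 51.6% and 77.4% of probes were well above background by the scanner software, which was lowest on the WT duodenum array, where the 75th percentile of the signal was 68 against 323 on the other duodenum array and 905 and 972 on the spinal cord arrays. The *Ip6k2* probe had signals of 452 on the WT and 1320 on the IP6K2-/- spinal cord array, a log2 difference of 1.45, so it went against the genotype label there. In the duodenum it read 139 and 572, well above background on both, with a log2 difference of −0.21 after scaling, and the files do not place it relative to exon 6. The arrays are therefore named as labelled throughout, and every direction rests on those labels. The tissue labels fit the marker lists. All 9 neuron and glia genes with a probe were well above background on both spinal cord arrays, and all 12 gut epithelium genes on both duodenum arrays.

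In the spinal cord all 10 genes were higher on the array labelled IP6K2-/- than on the WT array, with *Prtn3* lower under normexp background correction alone, which models each spot as signal plus its local background. The log2 differences, between signals set relative to the 75th percentile of each array, lay between 0.85 and 1.69, with a median of 1.08, while the median of all 25177 genes with a value was −0.04. In total 6 of the 10 genes were at least 2-fold higher, against 2.28% of all genes, and 0 were at least 2-fold lower, against 0.870% of all genes. Each of the 10 lay above at least 97.4% of measured genes in its difference. The 10 summed signals came to 57300 for WT and 118000 for the array labelled IP6K2-/-. In bulk tissue, fewer cells of a type and less RNA per cell cannot be told apart.

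**Figure D1:**
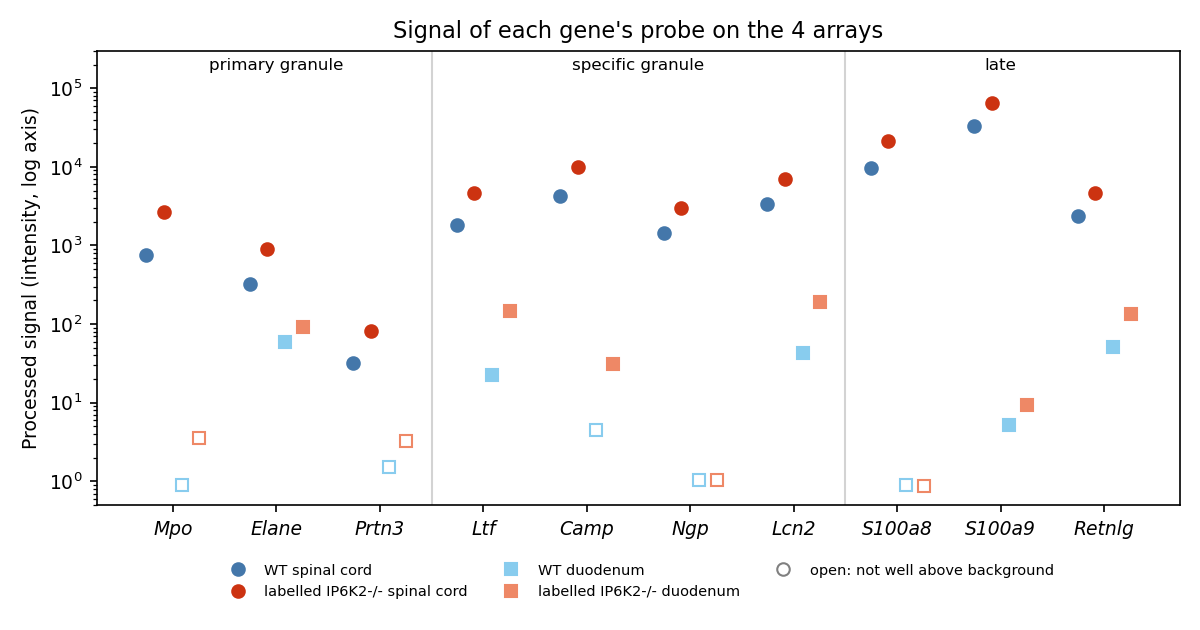
Processed signal (intensity, log axis) of the probe used for each gene on the 4 arrays. Circles are spinal cord, squares duodenum, blue WT and red or orange the arrays labelled IP6K2-/-, and open symbols are probes not well above background. Every gene was well above background on both spinal cord arrays with the red circle above the blue, and 4 genes, *Mpo*, *Prtn3*, *Ngp* and *S100a8*, have open symbols on both duodenum arrays.

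All 3 primary granule genes were at least 2-fold higher in the spinal cord. *Mpo* encodes myeloperoxidase, the haem enzyme that makes hypochlorous acid. Its WT signal was 762 against 2640 on the array labelled IP6K2-/-, a log2 difference of 1.69 ± 0.059 (technical SD), or 3.22-fold after scaling. *Elane* encodes neutrophil elastase, and read 324 for WT and 914 for the other array, a log2 difference of 1.39 ± 0.064, or 2.62-fold. *Prtn3* encodes proteinase 3, a serine protease related to elastase. Its signals were 31.9 and 82.4, with a log2 difference of 1.27 ± 0.11, or 2.40-fold. The technical SD of each was small beside its difference.

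Among the specific granule genes, 2 of 4 were at least 2-fold higher. *Ltf*, which encodes the iron-binding protein lactoferrin, had signals of 1800 and 4660 on the WT and the labelled IP6K2-/- array, a log2 difference of 1.27 ± 0.056, or 2.41-fold. *Camp* encodes the precursor of the antimicrobial cathelicidin peptide. Its brighter probe read 4310 and 9990, a log2 difference of 1.11 ± 0.058, or 2.16-fold. Its second probe read 2150 and 11100, a log2 difference of 2.27, or 4.82-fold, so the 2 probes gave the same direction and different sizes. *Ngp* encodes neutrophilic granule protein, a relative of the cathelicidin precursors and cystatins, and read 1440 and 3000, a log2 difference of 0.95 ± 0.058, or 1.94-fold. *Lcn2* encodes lipocalin 2, which binds bacterial siderophores and is also made by epithelia. It read 3360 and 7010, a log2 difference of 0.96 ± 0.059, or 1.94-fold, just under the 2-fold mark like *Ngp*.

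Of the late genes 1 of 3 was at least 2-fold higher. *S100a8* and *S100a9* encode the 2 subunits of calprotectin, which binds zinc and manganese in the neutrophil cytosol. *S100a8* read 9540 for WT and 21200 for the array labelled IP6K2-/-, a log2 difference of 1.05 ± 0.057, or 2.07-fold. *S100a9* read 33300 and 64300, a log2 difference of 0.85 ± 0.057, or 1.80-fold. *Retnlg* encodes resistin-like gamma, a secreted protein of marrow and circulating neutrophils. Its signals were 2370 and 4610, a log2 difference of 0.86 ± 0.057, or 1.82-fold. *S100a8* alone of the 3 passed 2-fold.

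Ordered by size, the differences ran from *Mpo* through *Elane*, *Ltf*, *Prtn3*, *Camp* and *S100a8* to *Lcn2*, *Ngp*, *Retnlg* and *S100a9*. Of the 9 steps between neighbours in this order, 2 were larger than the summed technical SDs of the genes they separate. These were that from *Mpo* to *Elane*, of 0.296 against 0.123, and that from *Elane* to *Ltf*, of 0.121 against 0.120. The SDs cover spots and not probes, and the 2 *Camp* probes, at 1.11 and 2.27, lay further apart than any step. The order of the genes is therefore not settled by these SDs. By role, the median difference was 1.39 for the primary granule genes, 1.03 for the specific granule genes and 0.86 for the late genes. The lowest primary granule value, 1.27, was above the highest late value, 1.05. This separation was noticed in the values and was also present with quantile normalization within each tissue. Median centring and scaling on spiked-in controls shift all genes of an array alike, so they could not change it. The 2 groups overlapped under both normexp background corrections, under quantile normalization of the 4 arrays and in the deposited table, and the second *Camp* probe lay above all primary granule genes. Under normexp the order of the medians changed, with 0.89 for the primary granule genes, 1.26 for the specific granule genes and 1.25 for the late genes.

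**Figure D2:**
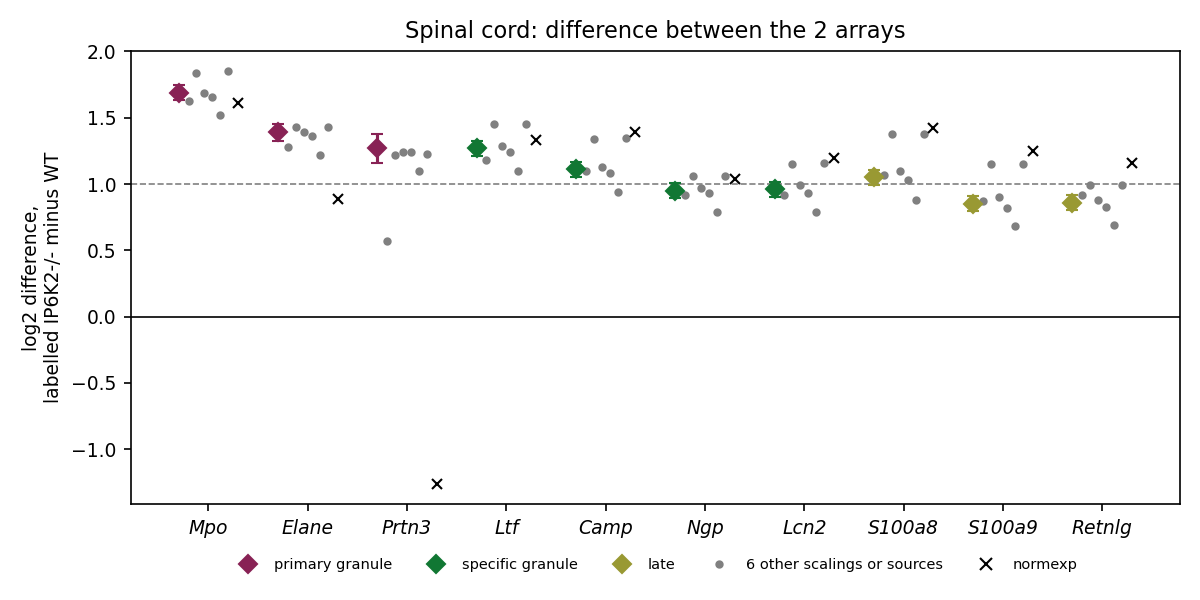
Log2 difference between the spinal cord arrays, labelled IP6K2-/- minus WT, for each gene. Diamonds are the main values with their technical SD as bars, coloured by role, grey points are 6 other scalings or sources, crosses are normexp background correction, and the dashed line is 2-fold. The differences run from 1.69 for *Mpo* to 0.85 for *S100a9*, and *Prtn3* under normexp is the single value below 0, at −1.26.

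All 10 genes were well above background on both spinal cord arrays, so the filters could not change a value there. Averaging of a gene's probes could change *Camp* alone. With these unchanged values counted, 99 of 100 values of the 10 genes in the spinal cord were above 0 over the other scalings, background corrections, probe rules and filters. The exception was *Prtn3* at −1.26 under normexp background correction, a setting in which the median gene was at −0.45. When the flagged local backgrounds were set to the array's median background, *Prtn3* was at 0.57. *Mpo*, by contrast, stayed between 1.52 and 1.85 over the 7 other scalings and sources.

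Other products of the same granules were counted in the spinal cord. For the 6 other primary granule genes, 2 were at least 2-fold higher, 0 lower and all 6 above 0, with a median of 0.75. This median was −0.08 under normexp and 0.58 with flagged backgrounds replaced. The median gene was at −0.45 and −0.05 in these settings, respectively. *Ctsg*, which encodes the granule protease cathepsin G, read 200 and 724, a log2 difference of 1.75, and *Ms4a3*, a membrane protein of granulocyte and monocyte progenitors, read 60 and 175, a log2 difference of 1.44. *Serpinb1a*, an inhibitor of the granule proteases, was at 0.70 and the granule proteoglycan gene *Srgn* at 0.53. Both of these are also made outside neutrophils. For the 10 other specific and gelatinase granule genes with a probe, 3 were at least 2-fold higher and 0 lower, with a median of 0.93. The 3 were *Cybb*, the gp91 subunit of the NADPH oxidase, at 1.43, the haptoglobin gene *Hp* at 1.04 and *Wfdc21* at 1.01. *Chil3*, a chitinase-like protein of the myeloid lineage, read 8870 and 17500, a log2 difference of 0.88. *Itgam*, which microglia also express, was at −0.12.

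Among 10 neutrophil surface receptors with a probe, 3 were at least 2-fold higher and 0 lower, and the median was 0.72. It was −0.34 under normexp and 0.51 with flagged backgrounds replaced. The formyl peptide receptor gene *Fpr1* was at 1.60 and the chemokine receptor gene *Cxcr2* at 1.11. *Csf3r*, the receptor for granulocyte colony-stimulating factor, had signals of 50100 and 51400 and a log2 difference of −0.06, and *Trem1* was at −0.21. The median of 8 granulocyte transcription factors was 0.63, or −0.41 under normexp and 0.29 with flagged backgrounds replaced. Of the 8, 2 were at least 2-fold higher and 0 lower. These were *Cebpe*, which is required for specific granules, at 1.20, and *Gfi1*, a repressor needed for neutrophil maturation, at 1.11. *Spi1*, which encodes PU.1, read 12.1 and 24.9, a log2 difference of 0.93, and *Cebpa* was at 0.22. *Cebpb* and *Cebpd*, which are widely expressed, were at 0.02 and 0.33.

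Signals that draw neutrophils into tissue and the acute phase genes did not follow the granule genes in their values. Of 14 such genes 8 had a value, 0 were 2-fold higher or lower, and the median was 0.05. It was −2.21 under normexp and −0.07 with flagged backgrounds replaced. *Cxcl2*, *Cxcl3*, *Csf3*, *Il17a*, *Saa3* and *Sele* were not well above background on either spinal cord array. *Cxcl1* read 7.77 on the WT array and 5.18, not well above background, on the other, *Il1b* read 14.6 and 13.6, and *Saa1* read 209 and 206. *Il6* read 9.62 and 12.8, a log2 difference of 0.31, and *Tnf* 4.88 and 6.97, a difference of 0.41. The lowest signals well above background were 4.47 and 4.29, so several of these values rest on dim probes. *Lrg1*, which neutrophils and liver also make, was at 0.63. For the 5 receptors of the granule products, the median was −0.16 with 0 genes 2-fold higher or lower. *Slc22a17*, a lipocalin 2 receptor, was at −0.12, *Lrp1* at −0.16 and the calprotectin receptor genes *Tlr4* and *Ager* at 0.56 and −0.82.

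Markers of other marrow lineages moved with the granule genes in the spinal cord, and their part in these differences was not tested. Of 11 erythroid precursor genes with a probe, 8 were at least 2-fold higher and 0 lower, with a median of 1.58. The median was −0.77 under normexp and 0.42 with flagged backgrounds replaced. *Klf1* and *Gata1*, transcription factors of the red cell lineage, were at 1.99 and 1.95, and *Slc4a1* at 1.54, while *Hemgn* was at −0.12. The signals of the 11 genes summed to 14400 for WT and 15800 for the other array, of which *Hemgn* alone gave 12700 and 12500. Of the 5 globin and haem genes 3 were at least 2-fold higher, with a median of 1.16 and a summed signal of 206000 and 340000. *Hba-a1* and *Hba-a2*, whose sequences are nearly identical so that their probes may not separate them, were at 0.89 and 0.36. Of the 7 megakaryocyte and platelet genes 4 were at least 2-fold higher, with a median of 1.18 and a summed signal of 781 and 2160. Their median was −0.76 under normexp and 0.48 with flagged backgrounds replaced. The platelet chemokine genes *Ppbp* and *Pf4* were at 1.67 and 1.47.

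B cell precursor genes had a value for 9 of 11, of which 4 were at least 2-fold higher and 0 lower. Their median was 0.89 and their summed signal 1280 and 1670, of which *Ebf1* alone gave 1030 and 902. The median was −1.39 under normexp and 0.16 with flagged backgrounds replaced. *Cd79b*, part of the B cell receptor complex, was at 1.79 and *Vpreb3*, expressed in B cell precursors, at 1.35, while *Ebf1*, which is not confined to B cells, was at −0.30. The pre-B genes *Igll1* and *Rag2* were not well above background on either array. *Vpreb1* was at 0.89 and *Dntt* at 0.45. *Rag1* was well above background on the array labelled IP6K2-/- alone, at a signal of 7.2. Eosinophil, basophil and mast cell genes had 5 values, 2 of them at least 2-fold higher, with a median of 0.62. Their summed signal was 1220 and 2030. The median was −1.88 under normexp and 0.31 with flagged backgrounds replaced. *Prg2* and *Epx*, products of eosinophil granules, were at 0.61 and 0.62, and *Prg3* at 1.60.

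Among 11 monocyte and macrophage genes with a probe, 4 were at least 2-fold higher and 0 lower, with a median of 0.41 and a summed signal of 14500 and 17100. *Ccr2*, the chemokine receptor of blood monocytes, read 5.76 and 33.6, a log2 difference of 2.44, *F13a1* was at 1.43, *Lyz2* at 1.42 and *Mrc1* at 1.28. Of the genes that microglia share with other macrophages, *Adgre1* was at 0.70, *Csf1r* at 0.03, *C1qa* at −0.00, and *C1qb* and *C1qc* both at 0.05. *Tmem119* and *P2ry12*, which mark microglia, were at 0.41 and 0.35. The 12 bone and marrow stroma genes had a median of 0.35 and a summed signal of 5630 and 9690. Their median was −0.71 under normexp and 0.12 with flagged backgrounds replaced. Of the 12, 8 were above 0 and 4 below, 2 were at least 2-fold higher and 0 lower. The 2 were *Ibsp*, the bone sialoprotein gene, at 1.04 and *Col1a1* at 1.00. *Acp5* was at 0.96, *Cxcl12* at 0.69, *Ctsk* at 0.68, *Sp7* at 0.50 and *Bglap2* at 0.20. *Dmp1*, *Phex* and *Alpl*, which mark osteoblasts and osteocytes, were at −0.10, −0.46 and −0.15.

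Skeletal muscle genes differed by more than the granule genes between the same 2 arrays. All 11 were above 0 and 10 were at least 2-fold higher, with a median of 4.01 and a summed signal of 4040 for WT and 66500 for the array labelled IP6K2-/-. The fast myosin gene *Myh4* read 1250 and 21600, and *Tnni2* read 1350 and 20700. The part of muscle, bone and marrow RNA in the values of the 10 genes was not tested. Neuron and glia genes lay between −0.26 and 0.16 over 9 genes, with the synaptic gene *Snap25* at −0.09.

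**Figure D3:**
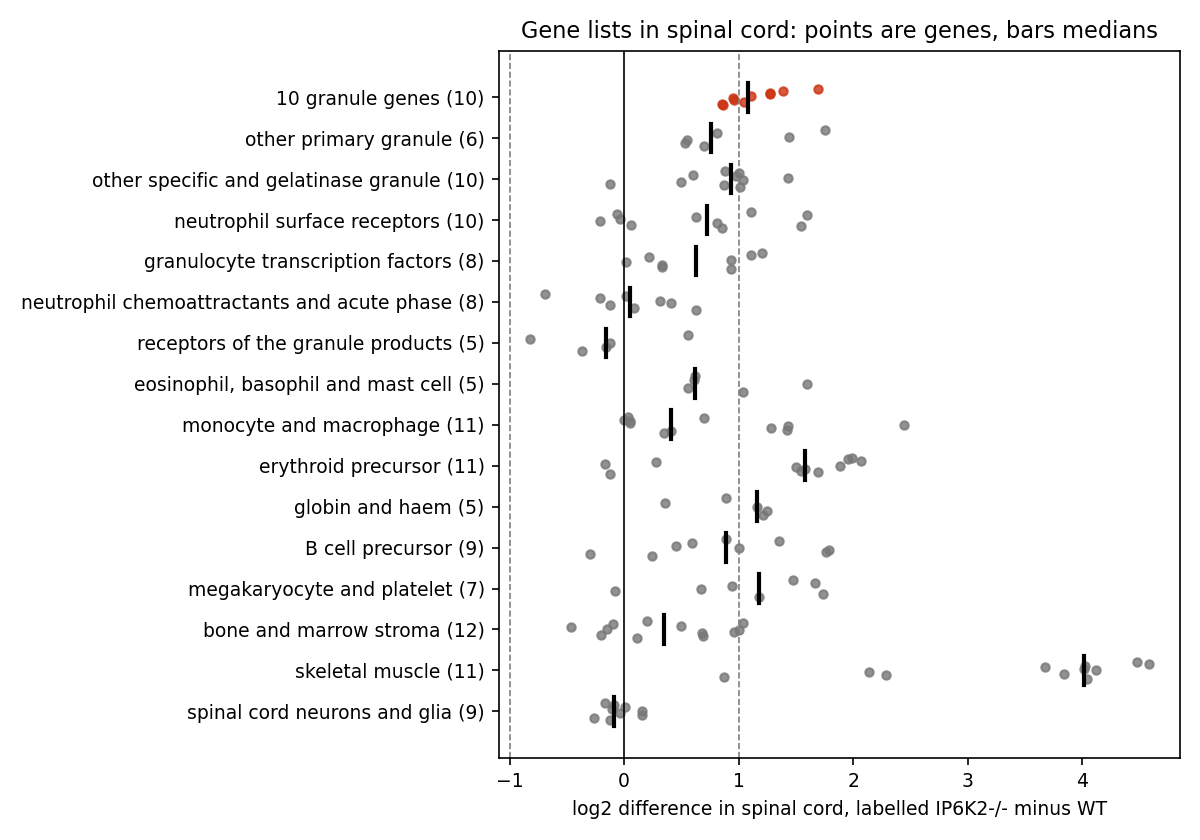
Log2 differences between the spinal cord arrays, labelled IP6K2-/- minus WT, for the 10 granule genes and 15 other gene lists, with the number of genes with a value after each name. Each point is a gene, black bars are medians and dashed lines mark 2-fold. The 10 granule genes, with a median of 1.08, lie between the erythroid precursor list at 1.58 and the neuron and glia list at −0.09, and skeletal muscle genes reach a median of 4.01.

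In the duodenum fewer of the 10 genes were detected. Well above background were 5 genes for WT and 6 for the array labelled IP6K2-/-, and the summed signal was 190 and 613. *Mpo*, *Prtn3*, *Ngp* and *S100a8* were not well above background on either array, so no difference is given for them, and the limit is the signal over background and not a measured equality. With the 75th percentile of each array subtracted, 0 genes were at least 2-fold higher and 2 at least 2-fold lower on the array labelled IP6K2-/-. Over all 18045 genes with a value, 8.51% were at least 2-fold higher and 14.2% at least 2-fold lower. The median of the 6 genes with a value was −0.48 and that of all genes −0.05.

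*Elane* read 58.4 for WT and 91 for the array labelled IP6K2-/-, a log2 difference of −1.61 ± 0.099, or 3.05-fold lower after scaling. *S100a9* read 5.17 and 9.23, a log2 difference of −1.41 ± 0.36, or 2.66-fold lower. Both signals of *S100a9* lay near the lowest signals well above background, 4.29 and 4.33. *Retnlg* read 51.3 and 136, a log2 difference of −0.84 ± 0.097. *Lcn2* read 43.5 and 189, a log2 difference of −0.13 ± 0.10, which was close to its technical SD. *Ltf* read 22.8 and 147, a log2 difference of 0.45 ± 0.13 that was −0.41 under normexp. For *Camp* the array labelled IP6K2-/- alone gave a probe well above background, at 31.2, and it was at least 1.47-fold higher there, with at least 1.39-fold for its second probe. With both normexp corrections the fold bound of the first probe was under 1, so none is given. Of the 10 genes *Elane* and *S100a9* were therefore those past 2-fold.

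The signals of these 6 genes were all higher on the array labelled IP6K2-/-, which was brighter throughout, so the direction depended on the scaling. With each array scaled on spiked-in control probes, the median gene was at 2.89, and all 6 genes were at least 2-fold higher, with a median of 2.52. *Elane* was then at 1.40 and *S100a9* at 1.59. Relative to the median gene, *Elane* was at −1.49 under both scalings. These 2 had to give the same value, because each shifts all genes of an array alike. Over all scalings and corrections *Elane* lay between −1.62 and −1.03. *S100a9* was at −1.29 and *Retnlg* at −0.73 relative to the median gene under the same 2 scalings, and *Lcn2* was at −0.01.

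**Figure D4:**
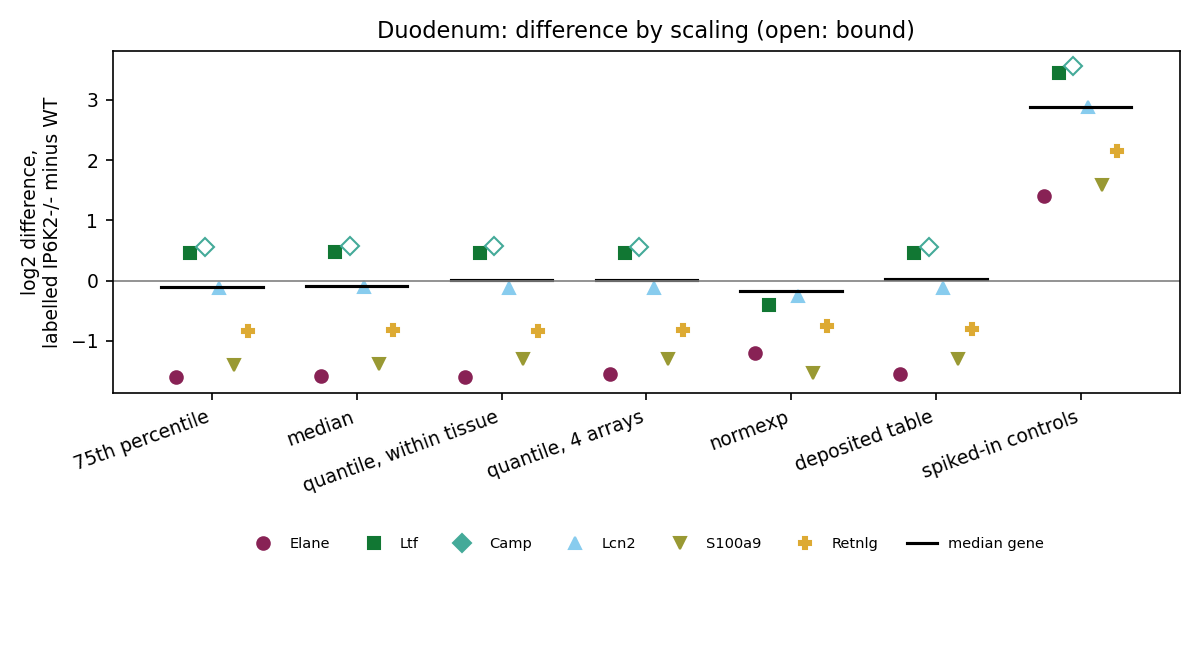
Log2 difference between the duodenum arrays, labelled IP6K2-/- minus WT, of the genes with a value under 7 scalings or sources. Each symbol is a gene, open symbols are bounds and black bars the median gene. *Elane*, *S100a9* and *Retnlg* lie below the median gene under each scaling shown, and the whole set moves above 0 with spiked-in controls, where the median gene is at 2.89.

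In the duodenum all 5 globin and haem genes were at least 2-fold lower on the array labelled IP6K2-/-, with a median of −3.77, whereas with spiked-in controls the median was −0.77, 2 were at least 2-fold lower and 1 was above 0. Their summed signal was 104000 and 28500. All 6 megakaryocyte and platelet genes with a value were at least 2-fold lower, with a median of −2.92 that became 0.80 with spiked-in controls. Their part in the values of *Elane*, *S100a9* and *Retnlg* was not tested. Among the other neutrophil lists at this scaling, 0 of 3 other primary granule genes, 1 of 5 specific and gelatinase granule genes, *Cybb* at −1.19, and 0 of 4 surface receptors with a value were at least 2-fold lower, and 0 were at least 2-fold higher. Of 7 granulocyte transcription factors 3 were at least 2-fold lower, *Runx1* at −1.70, *Cebpd* at −1.27 and *Cebpb* at −1.15. *Retnlb*, a paralogue of *Retnlg* made by goblet cells, read 117 on the WT array and 5.86 on the other, a log2 difference of −6.57 beside −0.84 for *Retnlg*.

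Between tissues, the genes were lower in the duodenum. Differences are given relative to the median gene, because the scalings shift all genes between tissues. On the WT arrays the median gene was higher in the duodenum by 0.63, and 8 of the 9 genes with a value, all but *Prtn3* having one, were at least 2-fold lower than it, against 40.2% of all genes. The median of the genes was −4.36 relative to the median gene. The values of *Mpo*, *Camp*, *Ngp* and *S100a8* are bounds, and this median is the bound of *Mpo*. The median gene was taken over genes measured on both arrays, while the median of all genes with a value was 0.17. *S100a9* was lower in WT duodenum by 485-fold and *S100a8* by at least 167-fold on the scaled values. *Elane* was the exception, with a log2 difference of 1.26, or 0.63 relative to the median gene. Its scaled difference turned below 0 with quantile normalization within each tissue and with spiked-in controls. On the arrays labelled IP6K2-/-, all 10 genes were at least 2-fold lower in the duodenum than the median gene, against 32.4% of all genes. The values of *Mpo*, *Prtn3*, *Ngp* and *S100a8* are bounds there, because these genes were well above background in the spinal cord alone. *S100a9* was lower by 2320-fold, *S100a8* by at least 1630-fold and *Elane* by 3.34-fold there. These ratios describe single arrays, and both tissue comparisons use 1 array of each tissue.

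The median differences were paired, 1.08 in spinal cord over all 10 genes and −0.48 in duodenum over the 6 with a value. Genes whose pair of differences in the 2 tissues was nearest to this median pair were taken from 12835 genes that were well above background in both tissues. The nearest were *Cdca8*, with 1.13 and −0.46, *Lrr1* with 1.10 and −0.54, *Clec4a1* with 1.02 and −0.44, *Ccnb1* with 1.11 and −0.60 and *Fcgr4* with 0.95 and −0.48. *Fcgr4* encodes an Fc receptor of neutrophils and monocytes, *Clec4a1* a C-type lectin of myeloid cells, and *Cdca8* and *Ccnb1* proteins of mitosis. In all, 134 genes lay within 0.5 of the median pair, and likeness over 2 differences says nothing of shared control.

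Among the 10 genes, *Camp*, *Ngp* and *Ltf* lie on chromosome 9, as *Ip6k2* does, with 43, 62 and 88 annotated genes between each and *Ip6k2*. With the probe used for each gene, their spinal cord differences had a median of 1.11 and lay between 0.95 and 1.27. The second *Camp* probe, at 2.27, lay above this range and above all genes on other chromosomes. The 7 genes on other chromosomes had a median of 1.05 and lay between 0.85 and 1.69, so the ranges overlapped.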

How the data were processed

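RNA with an integrity number above 7.0 was labelled with Cy3 from 0.1 µg and hybridized to 4 arrays, 1 per group. The authors deposited the output of Agilent Feature Extraction (11.5.1.1 in the submitters' processing notes), in which the processed signal is a background-subtracted intensity, and a table of normalized log2 values. Compared with the scanner files, the deposited log2 table holds processed signals, raised to 1 where lower, after quantile normalization of the 4 arrays. Over the probes of an array the median absolute difference from values rebuilt this way was at most 0.0024, and its array medians were 5.12, 5.12, 5.11 and 5.12.

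The scanner files were loaded in R 4.3.3 (limma 3.58.1). Between 89 and 133 outlier spots of 43020 per array were left out, with control spots. For each probe the log2 signals of its spots were averaged, and values were set relative to each array's 75th percentile. Of 26387 probes with an mRNA accession, 25864 were named through RefSeq, and the probe with the highest mean stands for a gene. A difference needed a probe well above background on at least 1 array. With 1 such array it is a bound against the lowest value well above background on the other. The technical SD came from 399 probes spotted 10 times and covers spots, not mice. Depth has no counterpart on arrays, so the number of arrays limits the precision. The code was tested on simulated data.

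The 10 genes and the 17 other lists (165 genes, 157 with a probe) were chosen with earlier results of these data known. Named are the 10 genes with every probe, *Ip6k2*, the 2 genes of each list with the highest signal on any array, those at least 2-fold changed whose role bears on the list, and the 5 genes most like the 10. Further genes, such as those near 0, and the paralogue *Retnlb*, were named after their values were seen. Alternatives were 2 normexp corrections (offset 50, on the median spot signal), the deposited table, other scalings and filters, averaging of a gene's probes and a 1.5-fold threshold. Genes of the lists without a named probe were not analysed here. Some members of these lists are counted but not reported here by name.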

Additional observations from a re-analysis of the deposited data

Results flagged for a closer look

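The differences of *Elane*, *S100a9*, *Retnlg* and *Lcn2* were above 0 in the spinal cord and below 0 in the duodenum, for *Lcn2* at −0.13 ± 0.10 (technical SD) and −0.01 relative to the median gene, and this contrast between tissues was not tested because each group has 1 array. The duodenum difference minus the spinal cord difference on the log2 scale was −3.00 for *Elane*, −2.26 for *S100a9*, −1.70 for *Retnlg* and −1.08 for *Lcn2*. With arrays scaled on spiked-in controls, all 4 genes were higher in both tissues.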

How the results depend on the processing

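In the spinal cord 6 genes were at least 2-fold higher, against 4 with spiked-in controls, 5 with flagged backgrounds replaced, 8 under normexp and 9 with quantile normalization of the 4 arrays and in the deposited table, and all 10 passed 1.5-fold, while 1 gene, *Prtn3*, was at least 2-fold lower under normexp, at −1.26. The spinal cord median of 1.08 was 1.22 under normexp, 1.00 with flagged backgrounds replaced, 1.28 with quantile normalization of the 4 arrays, 1.29 in the deposited table, 0.91 with spiked-in controls and 1.16 with the mean of a gene's probes. In the duodenum, with spiked-in controls, 6 genes in place of 0 were at least 2-fold higher, 0 in place of 2 lower, the median was 2.52, *Elane* was at 1.40 and *S100a9* at 1.59. Without a filter 5 were lower and the duodenum median was −1.0. It was −0.75 under both normexp corrections and −0.84 with genes measured on both arrays. The WT tissue median of −4.36 relative to the median gene was −2.02 under normexp, −2.44 with flagged backgrounds replaced, −3.93 with quantile normalization of the 4 arrays, −3.75 within each tissue, −3.78 with spiked-in controls, −4.81 in the deposited table, −3.16 with genes measured on both arrays and −5.32 without a filter. The cause of these shifts was not tested. Of 157 values of single genes under the alternatives, 104 moved by less than the technical SD, 46 by more with the same sign, and 7 changed sign. The 104 include values that the filters or the averaging of probes could not change. The 7 were the 3 above, *Ltf* in the duodenum at −0.41 under both normexp corrections, and *Lcn2* at 2.88 and *Retnlg* at 2.16 there with spiked-in controls. No paired analysis was possible because each group has 1 array, and leaving out an array leaves no comparison. Signals near background limit the duodenum values.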
